A study of Mus musculus with 19 samples.

Results

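The 10 genes described here serve the assembly of lipoproteins and the formation and turnover of high-density lipoprotein (HDL). They are Apob, Mttp, Apoa1, Apoa2, Apoa4, Apoe, Apoc1, Lcat, Pltp and Scarb1, taken by symbol from the 55836 rows of a table of estimated counts, and all 10 were among the 13597 genes with enough counts to be tested. The livers came from male C57BL/6 wild-type mice, 8 weeks old at purchase, as 19 bulk RNA-seq libraries, 1 per mouse. The control diet (CD) drew 10% of its energy (kcal%) from fat. The diet that induces metabolic dysfunction-associated steatohepatitis (MD) drew 40 kcal% from fat and 20 kcal% from fructose, with added cholesterol at 2%. On each diet the mice received by daily gavage either vehicle (Veh), which was dilute Tween 20, or 2 mg of polyethylene particles (PE) for 8 weeks. The groups are CD + Veh, with 4 mice, and MD + Veh, CD + PE and MD + PE, with 5 mice each, and none of them carried an engineered allele. Each library held 10398820 to 15456729 counts, so that 1 CPM, the unit of counts scaled to a common library total, stood for 10.4 to 15.5 counts. PE libraries were shallower than vehicle libraries on both diets (exact permutation test, two-sided, p = 0.0159 on CD and p = 0.00794 on MD, the smallest p these group sizes allow). They also carry the later library numbers, so the effects of PE and of library order cannot be told apart. The same holds for diet within each treatment, where every MD library has a later number than every CD library. The hepatocyte markers were high in every library, with a summed level over 9 genes of 64830 to 112600 CPM.

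The liver packages triglyceride and cholesterol into very-low-density lipoprotein (VLDL). Apolipoprotein B, encoded by Apob, is the large structural protein of the particle, and the microsomal triglyceride transfer protein, encoded by Mttp, loads lipid onto it during synthesis. HDL runs the other way: apolipoprotein A-I takes up cholesterol that leaves cells through ABCA1, LCAT esterifies that cholesterol, PLTP moves phospholipid between particles, and the receptor SR-BI, encoded by Scarb1, takes cholesteryl ester from HDL into hepatocytes. Apolipoproteins E, C-I and A-IV move between particle classes and act in their clearance and metabolism. Mice carry most of their plasma cholesterol in HDL.

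Promoter sequences are shown for the genes whose expression differed between the diets (Apoa1, Apoe and Pltp) and for Apob, the structural gene of VLDL. Each run is the RefSeq window of 250 bases before the transcription start on the build GRCm38.p6, written 5′ to 3′ on the strand of the gene. Capitals mark the motifs that were searched on both strands. These were the nuclear receptor core AGGTCA, its direct repeats AGGTCANAGGTCA and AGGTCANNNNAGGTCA, which contain that core, the E-box CACGTG, the TATA box TATAAA, the HNF4 core CAAAGTC and the sterol element core TCACCCC.
Apoa1, chr9:46228380-46228629, plus strand: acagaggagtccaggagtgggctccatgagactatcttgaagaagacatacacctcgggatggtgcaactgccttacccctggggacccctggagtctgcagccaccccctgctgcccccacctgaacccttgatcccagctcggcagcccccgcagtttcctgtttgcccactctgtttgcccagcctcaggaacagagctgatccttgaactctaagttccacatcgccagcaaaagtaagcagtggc
Apoe, chr7:19699189-19699438, minus strand: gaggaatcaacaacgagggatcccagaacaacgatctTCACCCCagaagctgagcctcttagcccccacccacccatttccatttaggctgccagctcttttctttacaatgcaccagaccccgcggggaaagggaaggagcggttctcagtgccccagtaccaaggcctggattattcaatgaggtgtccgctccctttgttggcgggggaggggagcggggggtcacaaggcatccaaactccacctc
Pltp, chr2:164857709-164857958, minus strand: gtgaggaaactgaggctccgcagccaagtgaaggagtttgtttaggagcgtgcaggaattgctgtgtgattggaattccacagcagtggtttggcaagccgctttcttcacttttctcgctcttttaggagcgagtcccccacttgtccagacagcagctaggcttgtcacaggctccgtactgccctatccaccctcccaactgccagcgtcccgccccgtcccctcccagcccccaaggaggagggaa
Apob, chr12:7977427-7977676, plus strand: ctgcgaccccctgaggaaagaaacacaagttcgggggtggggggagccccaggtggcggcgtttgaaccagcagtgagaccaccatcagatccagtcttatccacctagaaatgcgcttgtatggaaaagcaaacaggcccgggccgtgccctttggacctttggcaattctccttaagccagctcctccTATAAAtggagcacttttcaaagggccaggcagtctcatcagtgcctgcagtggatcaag
Windows were found for 8 of the 10 genes, all but Apoc1 and Scarb1, and where a gene had several windows the first was read. The TATA box stood in Apob from 60 to 55 bases before the start and in Apoa2 from 212 to 207 bases before it, and 13% of all 27025 promoters hold these letters. The sterol element core was found only in Apoe, from 213 to 207 bases before the start, and 4.09% of promoters hold it. None of the other motifs was in any of the 8 windows. Of all promoters 13.8% hold the nuclear receptor core, 6.05% the E-box and 3.8% the HNF4 core, while the direct repeats occur in 0.037% and 0.0111%. These matches are descriptions of the letters only.

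Together these transcripts made up 3.83% to 5.54% of all counts in a library. Per kilobase of the canonical transcript, Apoe had the highest mean level over the 19 libraries (12460 CPM per kb, range 8474 to 16360), followed by Apoa2 (7064, range 5268 to 9053) and Apoa1 (4548, range 3171 to 6025). Next came Apoc1 (1740, range 1106 to 2344), Apoa4 (677, range 266 to 2182) and Apob (325, range 259 to 405). The enzymes, the transfer proteins and the receptor lay lowest on the same per-kilobase scale, with Lcat at 154 (range 127 to 180), Mttp at 82.9 (range 68.3 to 112), Scarb1 at 70.8 (range 48.6 to 89.3) and Pltp at 32.7 (range 9.41 to 108). Neighbours in this order had ranges that overlapped, except Apoa1 and Apoc1, Apob and Lcat, and Lcat and Mttp. The plot of CPM by library shows each gene on its own axis.

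**Figure D1:**
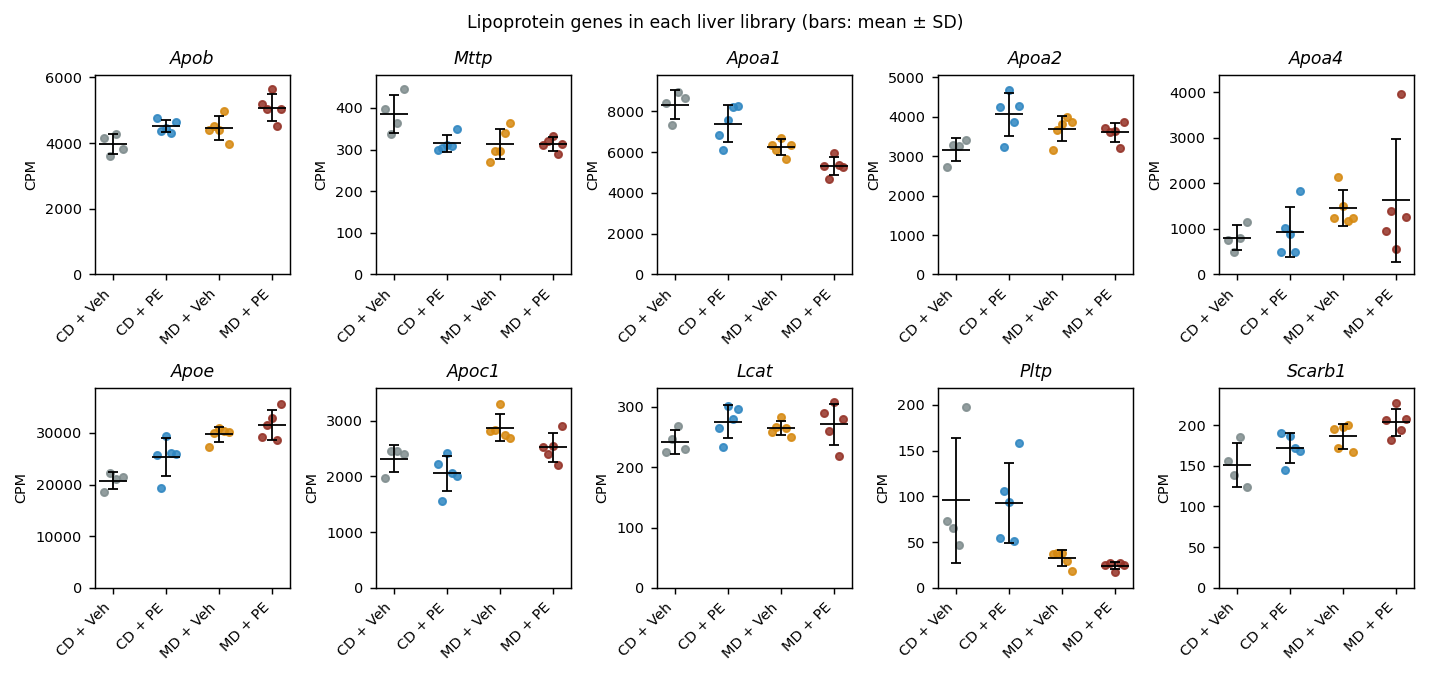
Level of each of the 10 genes in CPM (vertical axes, from 0) in every liver library of the 4 groups (CD + Veh, n = 4; the others, n = 5 each); points are libraries and bars show mean ± SD. Pltp lies lower in every MD library than in every CD library. Apoa1 lies lower in each MD group than in the CD group of the same treatment, and Apoe in MD + Veh lies above CD + Veh with no shared values.

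In mice given vehicle, 3 of the 10 genes differed between the diets: Apoe was higher in MD + Veh than in CD + Veh, and Apoa1 and Pltp were lower. A gene was called changed at a Benjamini-Hochberg adjusted p below 0.05 over all genes tested (edgeR quasi-likelihood test) together with a log2 fold change of 0.38 or more in size, and 10.4% of all genes tested met this limit. The libraries of the 2 groups did not overlap for 5 of the 10 genes (Apoa1, Apoa4, Apoe, Apoc1 and Pltp), against 16.2% of all genes, and 7 of the 10 had an unadjusted p under 0.05, against 28.6%. By direction, 4.74% of all genes tested were called higher and 5.63% lower. Mttp also passed the limit on adjusted p, as 14.2% of all genes did, but not that on the fold change. The median log2 change over the 10 genes was 0.20, against -0.0042 over all genes tested.

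In mice given PE, the same diet comparison (MD + PE against CD + PE) called 2 of the 10, both lower, Apoa1 and Pltp. Of all genes tested, 4.61% were called in either direction and 2.92% were called lower. Groups did not overlap for 2 of the 10, again Apoa1 and Pltp, against 6.18% of all genes, and 6 of the 10 had an unadjusted p under 0.05, against 21.7% of all genes.

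PE itself changed none of the 10 genes past the limits on either diet. In CD + PE against CD + Veh the count was 0 of 10 with edgeR and 0 with DESeq2, 4 of the 10 had an unadjusted p under 0.05 (Apob, Mttp, Apoa2 and Apoe), and 2.92% of all genes tested were called and 17.5% had such an unadjusted p. In MD + PE against MD + Veh the count was again 0 of 10 with both tools. There 2 of the 10 had an unadjusted p under 0.05 (Apob and Apoa1), with 1.08% of all genes called and 15.7% at such a p. Groups overlapped for all 10, while 3.57% of all genes had groups that did not. The effect of PE was not shown to differ between the diets for any of them. The interaction called 0 of 10 with edgeR and with DESeq2, with Mttp and Apoa2 at an unadjusted p under 0.05, while 0.00735% of all genes were called and 8.77% had such a p. CD + Veh is the control both for PE on CD and for the diet with vehicle, and MD + Veh and CD + PE each enter 2 comparisons, so values in different comparisons are not independent.

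**Figure D2:**
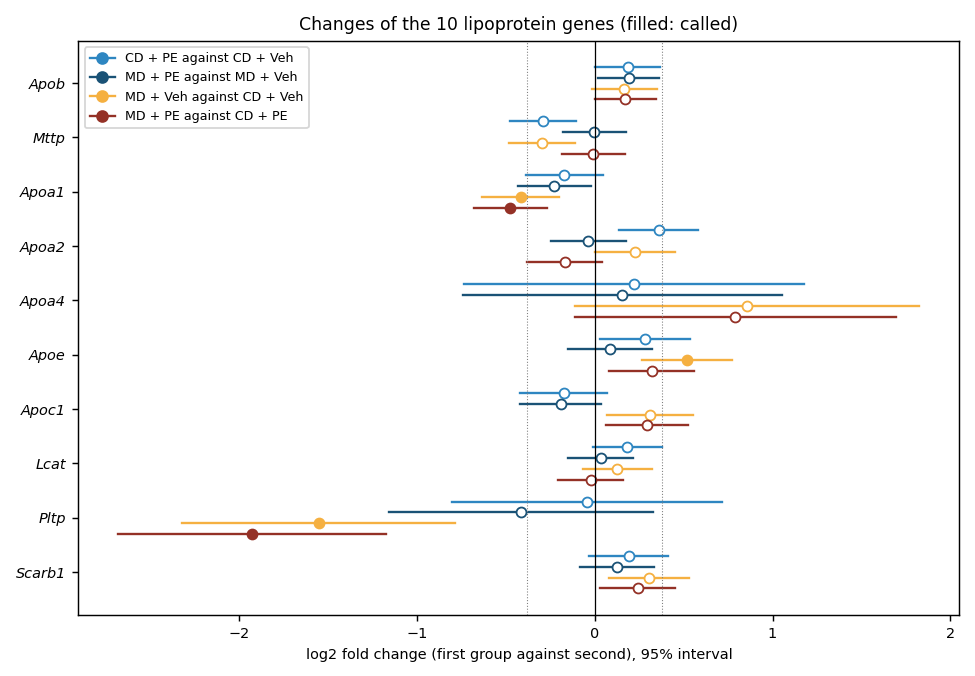
Log2 fold change (horizontal axis) of each of the 10 genes in 4 comparisons, with 95% intervals from the edgeR fit; filled points were called and dotted lines mark a log2 change of 0.38 in either direction. The 5 filled points are Apoa1 and Pltp in both diet comparisons and Apoe in MD + Veh against CD + Veh.

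For VLDL assembly, Apob lay a little higher in each group given PE or MD than in CD + Veh, without passing the limits. Apob (chr12:8027648-8066835, plus strand, GRCm39, 29 exons) was at 4151, 3605, 4277 and 3829 CPM in the 4 libraries of CD + Veh. It was at 4746, 4379, 4470.3, 4317 and 4627 CPM in CD + PE. All 5 libraries of CD + PE lay above all 4 of CD + Veh, a separation found in 7.83% of all genes tested and in no other of the 10. The log2 change was 0.18 (SE 0.087, adjusted p = 0.279). Libraries of MD + Veh held 4383, 4522, 4402, 4989 and 3966 CPM, and those of MD + PE held 5178, 5022, 5637, 4523 and 5038 CPM. These groups overlapped, with a log2 change of 0.19 (SE 0.082, adjusted p = 0.265). The diet differences of Apob were of like size, 0.17 with vehicle (adjusted p = 0.216) and 0.17 with PE (adjusted p = 0.229).

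Mttp, the lipid loading partner of apolipoprotein B, was highest in CD + Veh. Mttp (chr3:137795612-137850729, minus strand, 18 exons) was at 396, 337, 365 and 444 CPM in CD + Veh and at 299, 305, 312, 309 and 350.04 CPM in CD + PE. In MD + Veh the libraries held 271, 298, 297, 339 and 363 CPM, and in MD + PE they held 310.3, 322, 332, 288 and 314 CPM. The other groups thus had nearly the same mean (315 ± 20.2 CPM in CD + PE, 314 ± 37 CPM in MD + Veh, 313 ± 16.1 CPM in MD + PE, SD, n = 5 each), below 386 ± 46.2 CPM in CD + Veh (SD, n = 4). The log2 change was -0.29 in CD + PE against CD + Veh (SE 0.089, adjusted p = 0.0743). With the diet alone, MD + Veh against CD + Veh, it was -0.30 (SE 0.089, adjusted p = 0.0308), past the limit on p but below the minimum change. MD + PE differed from MD + Veh by 0.00 (95% interval -0.18 to 0.17). The interaction of PE and diet was 0.29 for Mttp (95% interval 0.03 to 0.55, adjusted p = 0.515).

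Apoa1, which encodes the main protein of HDL, fell on MD with vehicle and with PE. Apoa1 (chr9:46139878-46142212, plus strand, 4 exons) was at 8411, 7318, 8935 and 8664 CPM in CD + Veh and at 6369, 6098, 6698, 5659.5 and 6378 CPM in MD + Veh. The groups did not overlap, and the mean went from 8332 ± 709 CPM (SD, n = 4) to 6240.4 ± 388 CPM (SD, n = 5). This is a log2 change of -0.42 (SE 0.10, 95% interval -0.63 to -0.20, adjusted p = 0.0105), or 0.749-fold. It was not called without MD + Veh replicates 1 to 3 (-0.45, adjusted p = 0.0610). CD + PE held 6855, 6117, 7559.96, 8201 and 8280.2 CPM, and MD + PE held 5331, 4702, 5945, 5361 and 5278 CPM. Again no library of the MD group reached the lowest of the CD group, with a log2 change of -0.48 (SE 0.098, adjusted p = 0.00527), or 0.719-fold. PE against vehicle gave -0.17 on CD (SE 0.10, adjusted p = 0.427) and -0.23 on MD (SE 0.098, adjusted p = 0.260), and the groups overlapped on both diets. The interaction was -0.06 (95% interval -0.36 to 0.24, adjusted p = 0.944).

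The hepatocyte marker list tended to a lower summed level on MD, beside the fall of Apoa1, but its markers did not all move alike. Its summed level was 91330 to 105100 CPM in CD + Veh and 66270 to 83810 CPM in MD + Veh, where 1 of 9 markers rose and 2 fell (median log2 change -0.32). It was 82370 to 112600 CPM in CD + PE and 64830 to 84420 CPM in MD + PE, where 4 of 9 fell and 0 rose (median -0.27). In bulk liver, fewer cells of a type and less RNA per cell cannot be told apart, and the part of these markers in the fall of Apoa1 was not tested.

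Apoa2, the second protein of HDL, was not called in any comparison with all libraries, and its changes were not tested against those of Apoa1. Apoa2 (chr1:171049125-171053948, plus strand, 4 exons) was at 2729, 3275, 3261 and 3402 CPM in CD + Veh and at 4241, 3234, 4689, 3866 and 4272 CPM in CD + PE. Only replicate 2 of CD + PE lay within the range of CD + Veh. The log2 change was 0.36 (SE 0.11, adjusted p = 0.0701), and without that library it was 0.43 (adjusted p = 0.0199) and was called. The same library stood apart in its markers of other cells, with 906.6 CPM of Kupffer cell markers against 123 to 171.4 CPM and 442.7 CPM of red blood cell markers against 109.1 to 134.3 CPM in the rest of CD + PE. MD + Veh held 3159, 3665, 3814, 4002 and 3873 CPM, and MD + PE held 3707, 3609.6, 3646, 3208 and 3873 CPM. On MD the change with PE was -0.04 (95% interval -0.25 to 0.17), and the interaction was -0.40 (95% interval -0.70 to -0.09, unadjusted p = 0.0144 in the edgeR fit, adjusted p = 0.425). With vehicle the diet difference of Apoa2 was 0.23 (adjusted p = 0.172) and with PE it was -0.17 (adjusted p = 0.345), so no called change of Apoa2 stood beside that of Apoa1.

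Apoe, the ligand through which remnant particles are cleared and the most abundant transcript of the 10 per kilobase, rose on MD with vehicle. Apoe (chr7:19430034-19434947, minus strand, 4 exons) was at 18481, 22223, 20990 and 21405 CPM in CD + Veh and at 27271, 30052, 30997, 30295 and 30214 CPM in MD + Veh. The groups were well apart, and the mean went from 20775 ± 1613 CPM (SD, n = 4) to 29766 ± 1441 CPM (SD, n = 5), a log2 change of 0.52 (SE 0.12, 95% interval 0.26 to 0.77, adjusted p = 0.00714), or 1.43-fold. CD + PE was more spread, at 25685, 19298, 29457, 26146 and 25904 CPM, and MD + PE held 29292, 31532, 32814, 28578 and 35681 CPM. Among mice given PE the diet difference was 0.32 (SE 0.11, adjusted p = 0.0992), short of the limits. The interaction, which tests whether the diet difference changed with PE, was -0.20 (95% interval -0.55 to 0.15, adjusted p = 0.763). PE against vehicle gave 0.28 on CD (SE 0.12, adjusted p = 0.218) and 0.09 on MD (SE 0.11, adjusted p = 0.782).

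Macrophages also express Apoe. The summed level of 10 Kupffer cell markers was 147 to 255 CPM in CD + Veh and 310 to 439 CPM in MD + Veh, with 0 of 10 called. It was 123 to 906.6 CPM in CD + PE and 235.2 to 415.7 CPM in MD + PE. CD + PE replicate 2 had the highest sum of all 19 libraries, against 123 to 171.4 CPM in the rest of its group, and the lowest Apoe of its group, 19298 CPM. Of 6 markers of lipid-associated macrophages, 2 rose and 1 fell in MD + Veh against CD + Veh, and their sum went from a range of 73.9 to 97.7 CPM to one of 83.4 to 251.9 CPM. Markers of adipose tissue, which also expresses Apoe and Pltp, summed to at most 2.87 CPM in the CD groups and to 68.4 to 225 CPM in the MD groups. Only 1 of these 5 markers, Cfd, passed the filter on low counts. It was called higher in both diet comparisons (log2 change 7.56 with vehicle and 6.94 with PE), so the sum says little about adipose tissue as such. The part of these markers in the Apoe and Pltp results was not tested. Skeletal muscle markers summed to 2841, 180.1 and 123 CPM in MD + Veh replicates 1 to 3 and to 14.5 and 2.63 CPM in replicates 4 and 5, and all 7 were called higher in MD + Veh against CD + Veh. They were also high in CD + PE replicate 1 (377.3 CPM), and reached 33.7 CPM in CD + Veh replicate 2 and at most 2.52 CPM in MD + PE. Red blood cell markers were at 419.8 to 745.5 CPM in MD + Veh replicates 1 to 3 and at 147.3 to 220.7 CPM in CD + Veh, with 0 of 5 called. In a fit without the 3 libraries, added after the data had been seen, Apoe (0.56, adjusted p = 0.0292) and Pltp (-1.97, adjusted p = 0.0450) were still called for MD with vehicle, and Apoa1 (-0.45, adjusted p = 0.0610) was not. In that fit 2 of the 10 genes and 5 of 51 pathway genes were called, beside 737 over all genes. With all libraries 1410 genes were called.

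Apoc1, an inhibitor of lipoprotein lipase and of particle uptake, lies beside Apoe on the same strand (chr7:19422540-19427328, 3 exons). With vehicle it ranged from 1968 to 2459 CPM on CD and from 2689.8 to 3301 CPM on MD. With PE it ranged from 1558 to 2426 CPM on CD and from 2200.3 to 2908 CPM on MD. MD + Veh lay wholly above CD + Veh, with a log2 change of 0.31 (SE 0.12, adjusted p = 0.0822), and the diet difference with PE was 0.29 (SE 0.11, adjusted p = 0.116). The PE differences of Apoc1 were -0.18 on CD (adjusted p = 0.472) and -0.19 on MD (adjusted p = 0.422). Of the other genes in this cluster, Apoc2, which encodes the activator of lipoprotein lipase, was called higher in MD + Veh (log2 change 0.77, SE 0.17, adjusted p = 0.00390, not called without MD + Veh replicates 1 to 3). Apoc4, chosen after its values were seen, differed by 0.02 (SE 0.087, adjusted p = 0.887).

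Apoa4, an apolipoprotein of triglyceride-rich particles and HDL that the intestine also makes, varied with Pltp more between mice of 1 group than the other 8 genes, with a coefficient of variation of 27.5% to 82.8%. Apoa4 (chr9:46151994-46154757, plus strand, 3 exons) was at 762, 499.5, 807 and 1159 CPM in CD + Veh and at 1241, 2146, 1497, 1183 and 1238 CPM in MD + Veh. All 5 MD + Veh libraries lay above CD + Veh. The log2 change was 0.86 with an interval that included no change (SE 0.46, 95% interval -0.11 to 1.83, adjusted p = 0.231), and in a fit of these 2 groups alone it was 0.87 and was called (adjusted p = 0.0337). CD + PE held 487, 1016, 891, 483 and 1824 CPM, and MD + PE held 950.1, 1396, 549.9, 3959.8 and 1272 CPM. In those groups 1 library each stood high, and their log2 changes against vehicle were 0.22 on CD (95% interval -0.74 to 1.18) and 0.15 on MD (95% interval -0.74 to 1.05). The sign rested on those libraries, since the change was -0.17 without CD + PE replicate 5 and -0.48 without MD + PE replicate 4. Among mice given PE the diet difference of Apoa4 was 0.79 (SE 0.43, adjusted p = 0.302).

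Markers of intestinal epithelium summed to more CPM in MD + Veh than in CD + Veh, without overlap, while the median log2 change of the 5 markers that passed the filter on low counts was -0.25. The sum over 16 markers was 117.5 to 148.2 CPM in CD + Veh and 179.9 to 188.5 CPM in MD + Veh, and 132.8 to 168.9 CPM in CD + PE and 169.7 to 437.1 CPM in MD + PE. Fabp2, a fatty acid binding protein gene of the list, was at 42.6 to 66.6 CPM in CD + Veh and 104 to 121 CPM in MD + Veh, and was called higher in both diet comparisons, while 0 of the other 4 tested markers were called. At 0 in every library of the group were 8 of 16 markers in CD + Veh and in CD + PE, 5 in MD + Veh, all with Cdx1 and Cdx2, and 0 in MD + PE. The part of these markers in the Apoa4 values was not tested. MD + PE replicate 2 stood apart, with the sum of 437.1 CPM and with Vil1, Muc2 and Cdx2 at 22.7, 16.5 and 2.02 CPM. Apoa4 in that library was 1396 CPM, within the range of its group, while replicate 4 at 3959.8 CPM was the highest. Without replicate 2 the calls of Apoa1 and Pltp in MD + PE against CD + PE held. Apoa1 and Apoa4 flank Apoc3 in a cluster on chromosome 9, and Apoa5, chosen after its values were seen, lies downstream. Apoc3, an inhibitor of triglyceride clearance, differed by -0.08 in MD + Veh against CD + Veh (adjusted p = 0.594) and Apoa5 by -0.13 (adjusted p = 0.550), beside -0.42 for Apoa1 and 0.86 for Apoa4.

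Pltp, the phospholipid transfer protein that remodels HDL, had the largest called changes of the 10 genes. Pltp (chr2:164677702-164701743, minus strand, 16 exons) was at 72.9, 65.1, 46.97 and 197 CPM in CD + Veh and at 37.2, 38.2, 38.6, 29.8 and 18.6 CPM in MD + Veh. The groups did not overlap, and replicate 4 of CD + Veh stood far above its group. The log2 change was -1.55 (SE 0.37, 95% interval -2.32 to -0.79, adjusted p = 0.00745), or 0.340-fold. Without CD + Veh replicate 4 it was -0.91 (adjusted p = 0.0676), no longer called. CD + PE held 54.05, 106, 94.4, 51.2 and 158 CPM, and MD + PE held 25.4, 26.9, 17.1, 27.6 and 24.8 CPM. Here too every MD library lay below every CD library, with a log2 change of -1.93 (SE 0.36, 95% interval -2.68 to -1.17, adjusted p = 0.00241), or 0.263-fold, and this call held with each library left out in turn. PE against vehicle gave -0.04 on CD (95% interval -0.80 to 0.71) and -0.42 on MD (95% interval -1.16 to 0.32), intervals wide enough to hold changes of either sign.

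Pltp overlaps Ctsa, a lysosomal protease gene on the opposite strand, and the libraries were stranded. Ctsa was at 123 to 138 CPM in CD + Veh and 93.1 to 125 CPM in MD + Veh, a log2 change of -0.27 (SE 0.082, adjusted p = 0.0350), and with PE the diet difference was -0.31 (SE 0.078, adjusted p = 0.0183). Both changes of Ctsa were below the minimum of 0.38, while those of Pltp were -1.55 and -1.93.

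Lcat, which encodes the enzyme that esterifies cholesterol on HDL, varied little. Lcat (chr8:106665839-106670046, minus strand, 6 exons) ranged from 224 to 269 CPM (vehicle) and 233 to 302 CPM (PE) on CD, and from 251 to 283 CPM (vehicle) and 218 to 308 CPM (PE) on MD. Its log2 differences were 0.18 (PE on CD, adjusted p = 0.325), 0.03 (PE on MD, adjusted p = 0.904), 0.13 (MD with vehicle, adjusted p = 0.393) and -0.02 (MD with PE, adjusted p = 0.914). The 95% intervals of these differences together ran from -0.21 to 0.38.

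Scarb1, the HDL receptor of the hepatocyte, had means that stepped up from 151 ± 26.7 CPM in CD + Veh (SD, n = 4) to 172 ± 18.4 in CD + PE, 186 ± 15.4 in MD + Veh and 204 ± 16.8 CPM in MD + PE (SD, n = 5 each), with overlap between all groups compared. Scarb1 lies at chr5:125353547-125418176 on the minus strand and has 13 exons. The log2 difference was 0.30 in MD + Veh against CD + Veh (SE 0.11, adjusted p = 0.0624) and 0.24 in MD + PE against CD + PE (SE 0.10, adjusted p = 0.163). PE against vehicle gave 0.19 on CD (adjusted p = 0.381) and 0.13 on MD (adjusted p = 0.594).

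Within a library, the ratio of 2 transcripts does not depend on depth or scaling, and the ratios below are descriptions without a test. All 3 ratios contain Apoa1, and how many other gene pairs separate the groups as fully was not counted. Of single genes, 7.83% separated the groups for PE on CD and 16.2% for MD with vehicle. On CD, the ratio of Apoa1 to Apob counts was 2.03 to 2.26 with vehicle and 1.40 to 1.90 with PE. On MD it was 1.13 to 1.61 with vehicle and 0.936 to 1.19 with PE. Neither CD + PE nor MD + Veh overlapped with CD + Veh, and MD + PE, with a median of 1.05 against 1.45 in MD + Veh, overlapped with MD + Veh by its highest library. Counts of Apoa1 to Apoa2 had a median of 2.64 (vehicle) and 1.89 (PE) on CD and of 1.66 (vehicle) and 1.44 (PE) on MD. Every library of CD + Veh (2.23 to 3.08) lay above every library of the other groups (1.303 to 2.12). For Apoe to Apoa1 the order was the reverse, with medians of 2.41 and 3.19 on CD and 4.74 and 5.52 on MD, vehicle before PE. The ranges were 2.20 to 3.04 in CD + Veh and 3.13 to 3.90 in CD + PE, then 4.28 to 5.35 in MD + Veh and 5.33 to 6.76 in MD + PE, so that only the last pair touched.

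**Figure D3:**
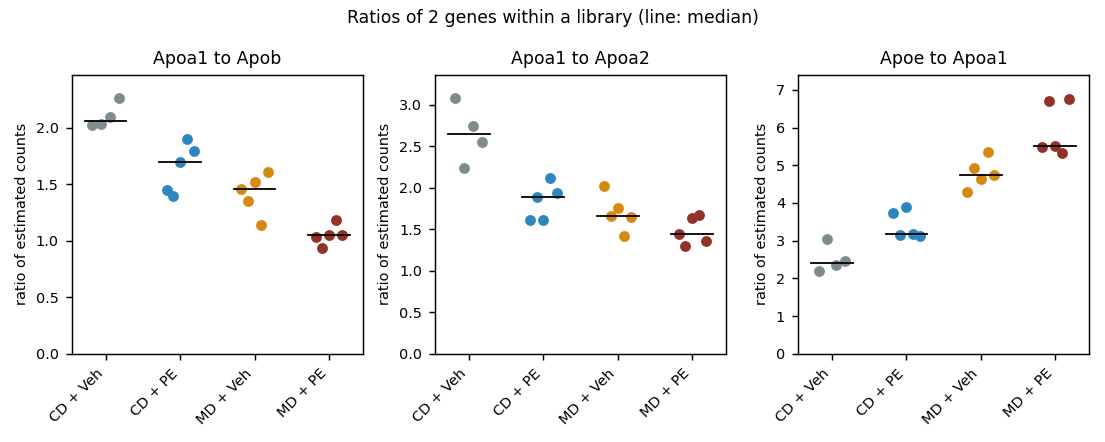
Ratio of the estimated counts of 2 genes within each library (vertical axes, from 0) by group; points are libraries and lines are medians. The ratio of Apoe to Apoa1 has medians of 2.41 and 3.19 on CD and of 4.74 and 5.52 on MD, vehicle before PE.

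Beyond the 10, 51 other genes of lipoprotein metabolism were followed in 5 lists, all tested. With vehicle, MD called 10 of the 51 (3 higher and 7 lower, beside 10.4% of all genes), and with PE it called 11 (4 higher and 7 lower, beside 4.61%). PE called 3 on CD (1 higher and 2 lower, beside 2.92%) and 4 on MD (all lower, beside 1.08%), and the interaction called 0 with edgeR, with 7 at an unadjusted p under 0.05, and 0 with DESeq2. The medians over the 51 genes were small, from -0.10 to 0.02 in the comparisons of groups.

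Among lipoprotein receptors and uptake genes, Lsr, a receptor for triglyceride-rich particles, was lower by -0.63 for PE on CD (adjusted p = 0.00649), -0.85 for MD with vehicle and -0.51 for MD with PE. The call of Lsr for PE on CD was kept in 19 of 19 fits with 1 library left out. With library numbers 39 to 45 against 46 to 57 as a covariate, PE on CD called 0 of the 51 genes, beside 37 of all 13597 tested. PE on MD called 1 of the 51, beside 33 of all genes. Only MD + Veh has libraries on both sides of that division, so the covariate is estimated from libraries 43 to 45 against 46 and 47 alone. With it, PE on MD rests on libraries 46 and 47 as the vehicle side. It does not adjust for order within a division, so PE and library order still cannot be told apart. Sdc1, a heparan sulphate proteoglycan that binds remnants, rose by 0.43 for MD with vehicle, a call lost without MD + Veh replicates 1 to 3. Scarb1, the receptor among the 10, was not called in any of these comparisons.

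Of the list of HDL formation and remodelling, 7 genes, Abcg1, a cholesterol exporter, rose on MD by 1.14 with vehicle (0.88 and not called without MD + Veh replicates 1 to 3) and by 1.34 with PE, and Abca1, which lipidates apolipoprotein A-I, rose by 0.46 with PE (adjusted p = 0.00793) and differed by 0.13 with vehicle. Lipg, an endothelial phospholipase that acts on HDL, fell, with a log2 change of -1.14 on MD with vehicle (SE 0.32, adjusted p = 0.0228), a call kept in 16 of 19 fits with 1 library left out and lost without MD + Veh replicates 1 to 3. Pon1, an esterase carried on HDL, rose by 0.43 for PE on CD (adjusted p = 0.0454), a call kept in 6 of 19 such fits and in 6 of 9 other settings, and lost with no filter on low counts, under the replicate block and with the library covariate. The hepatic lipase gene Lipc differed by 0.01 and Pdzk1, a scaffold that holds SR-BI at the membrane, by -0.13 in MD + Veh against CD + Veh, neither called in any comparison.

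Among 12 other apolipoproteins, Apom, a carrier of sphingosine-1-phosphate on HDL, fell, with a log2 change of -1.04 on MD with vehicle (SE 0.098) and by -0.88 with PE (SE 0.094). Its mean was 207 ± 22.02 CPM in CD + Veh (SD, n = 4) and 101 ± 8.15 CPM in MD + Veh (SD, n = 5). In MD + PE against CD + PE, Saa4 rose by 0.81 (a call kept in 17 of 19 fits with 1 library left out) and Apof fell, with a log2 change of -0.44. Apoc2 rose by 0.53 there with an adjusted p of 0.0458, a call kept in 6 of 19 fits with 1 library left out and in 6 of 9 other settings, and lost with no filter on low counts, with only the groups compared and under the replicate block. Apoc3 was the only apolipoprotein gene called for PE, at -0.41 on MD (SE 0.087, adjusted p = 0.0239), kept in 14 of 19 such fits and in 7 of 9 other settings, but not with only the groups compared or the library covariate.

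The 12 genes of VLDL assembly and secretion held 1 called gene in all 4 comparisons together, Tm6sf2, which acts in the lipidation of VLDL, at -0.71 in MD + PE against CD + PE (SE 0.14, adjusted p = 0.00319), while its diet difference with vehicle was -0.41 (adjusted p = 0.0597). Of all genes, 2.92% (PE on CD), 10.4% (MD with vehicle), 1.08% (PE on MD) and 4.61% (MD with PE) were called, so a count this low is not a sign of stability. For MD with vehicle 2 of the 12 were lower past the limit on adjusted p alone, beside 14.2% of all genes. With PE 2 were lower past that limit, Tm6sf2 among them. P4hb, the partner subunit of the microsomal transfer protein, differed by 0.21 in both diet comparisons (adjusted p = 0.106 with vehicle and 0.120 with PE). Of 12 transcription factors of apolipoprotein genes, Srebf2, which drives genes of sterol synthesis and uptake, fell, with a log2 change of -0.46 on MD with vehicle, -0.67 with PE and -0.39 for PE on MD (adjusted p = 0.0290, kept in 13 of 19 fits with 1 library left out and in 6 of 9 other settings, but not with RLE normalization, only the groups compared or the library covariate). Nr1h4, the bile acid receptor gene, fell, with a log2 change of -0.53 on MD with vehicle. Hnf4a, a hepatocyte factor that acts on many apolipoprotein promoters, was not called, with differences between -0.22 and 0.10.

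**Figure D4:**
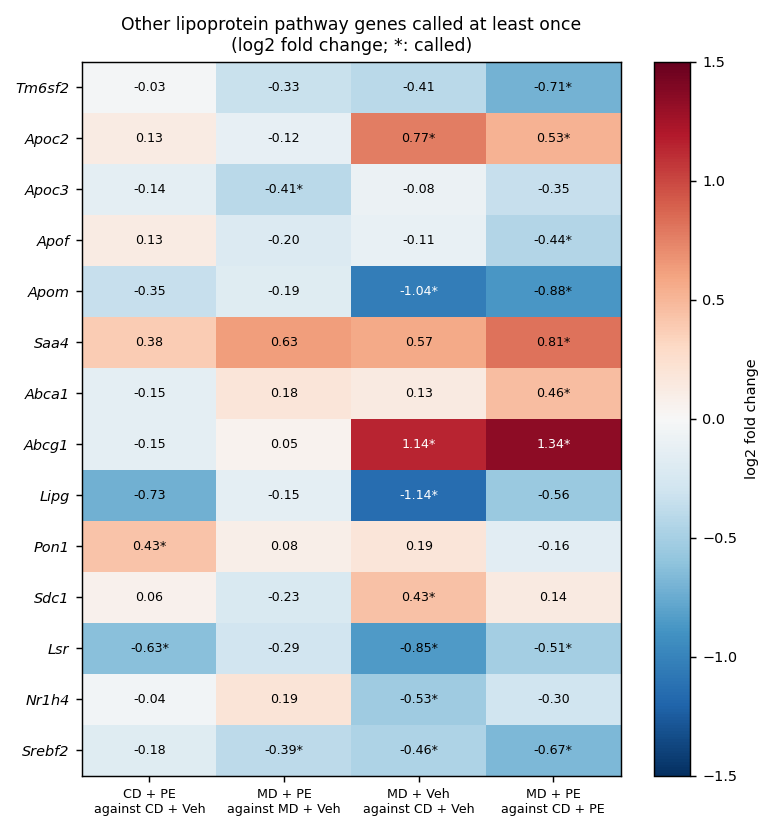
Log2 fold change (colour and number) of other lipoprotein genes called at least once, in 4 comparisons; an asterisk marks a call. Apom, Lsr, Abcg1, Apoc2 and Srebf2 carry an asterisk in both diet columns.

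For each called gene, the 3 genes with the most similar course over the 19 libraries were taken from the 9393 genes that averaged 5 CPM or more, by the root mean square (RMS) difference of centred log2 CPM. Apoa1 lay nearest to the ribosomal protein genes Rpl13a (RMS difference 0.102), Rps10 and Rps18, beside a spread of Apoa1 itself of 0.268. Rpl13a had means of 291, 255, 209.9 and 199 CPM, in the group order of the plots. Ribosomal protein genes have near-identical pseudogene copies that can share reads, so their estimates are uncertain. Apoe lay nearest to Aldh6a1 (0.0723), Dhrs4 and Grhpr, enzymes of amino acid, retinoid and glyoxylate metabolism, beside its own spread of 0.263. Pltp lay nearest to Hmgcs1 (0.478), Tm7sf2 and Fdft1, genes of cholesterol synthesis, beside its own spread of 0.968. These likenesses are descriptions over libraries that share groups.

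The 5 called results of the 10 genes were refitted under other settings. Apoa1 kept its calls in 9 of 9 other settings and in 19 of 19 fits with 1 library left out, and so did Apoe, but Apoa1 lost its call with vehicle when MD + Veh replicates 1 to 3 were all left out. In MD + Veh against CD + Veh the changes ranged from -0.48 to -0.38 for Apoa1 and from 0.48 to 0.57 for Apoe over the fits that left out a library. Library numbers 39 to 45 hold CD + Veh and 3 libraries of MD + Veh, while 46 to 57 hold the rest. Only MD + Veh has libraries on both sides of this division. A term for it is therefore estimated from libraries 43 to 45 against 46 and 47 alone. The diet comparison with vehicle then rests on CD + Veh and on libraries 43 to 45 of MD + Veh. Those 3 libraries held the most skeletal muscle markers of their group. With this division as a covariate Apoa1 changed by -0.38 (adjusted p = 0.0371), Apoe by 0.50 (adjusted p = 0.0178) and Pltp by -1.33 (adjusted p = 0.0413) in MD + Veh against CD + Veh. Within MD + Veh, Mttp was 271 to 298 CPM in libraries 43 to 45 and 339 to 363 CPM in libraries 46 and 47. With the covariate Mttp was called lower on MD with vehicle (-0.42, adjusted p = 0.00388). Without libraries 43 to 45 its change was -0.12 (adjusted p = 0.593) and was not called. The size of the Mttp change on MD with vehicle thus depended on those 3 libraries.

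**Figure D5:**
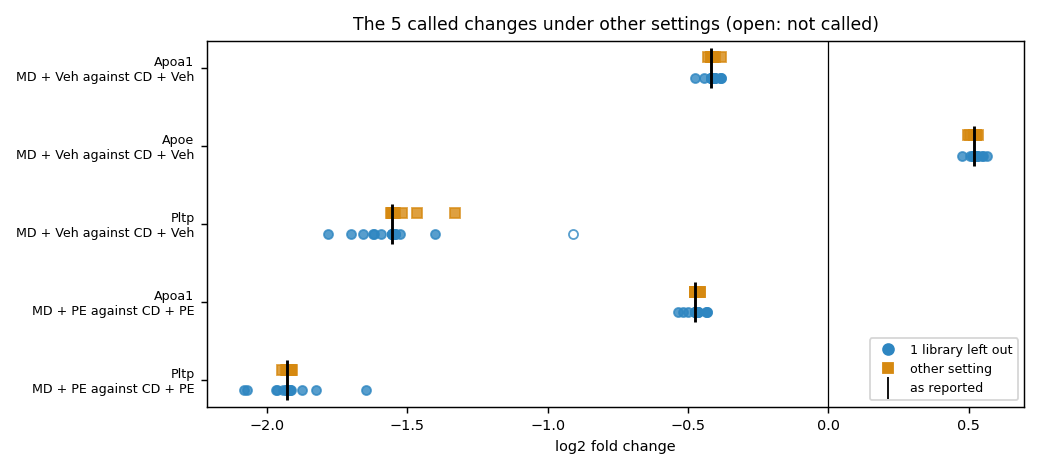
Log2 fold change (horizontal axis) of the 5 called results of Apoa1, Apoe and Pltp as reported (black bars), under 9 other settings (squares) and with each of the 19 libraries left out in turn (circles); open symbols were not called. The only open symbol is Pltp in MD + Veh against CD + Veh without CD + Veh replicate 4, at -0.91.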

How the data were processed

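Liver poly(A) RNA of 19 mice was sequenced as stranded paired-end libraries. Per the labels and the methods, the authors trimmed reads with fastp 0.23.4, quantified transcripts with Salmon 1.10.3 on the GENCODE transcriptome of GRCm39 and used tximport for gene totals. What the authors deposited are estimated counts per gene, whole numbers, without normalization or filter. Groups were taken from the sample titles. Over 36 pairs of libraries of 1 group, at most 1.85% of genes were identical, so none was a copy.

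Tests were run with edgeR 4.0.16 under R 4.3.3 (TMM, filterByExpr by group, 1 term per group over all 19 libraries, quasi-likelihood F test, Benjamini-Hochberg adjustment over 13597 genes). The limits on adjusted p (0.05) and log2 fold change (0.38) are those of the study. SE is the log2 fold change, without its sign, over the root of F. The interaction is the PE change on MD minus that on CD. p-values measure the spread between mice. Per the methods, groups of 4 or 5 mice shared housing, which are the group sizes, so that cage and group may coincide and then cannot be told apart. Depth was compared with scipy 1.17.1. Gene positions come from GENCODE vM39 (GRCm39), which matched 99.3% of the genes tested, and promoter windows are those of RefSeq on GRCm38.p6. The analysis was tested on simulated data.

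Alternatives were RLE normalization, DESeq2 1.42.0, no filter, a stricter filter (a mean of 1 CPM, and 10 counts in each library of 1 group), no minimum change, a robust fit, a fit of only those groups, a block for the replicate number, the library number division as a covariate, thinning to equal depth and each library left out. A fit that left out MD + Veh libraries 43 to 45 was chosen with the data in view. The 10 genes, the lists and the library division, for which the labels give no reason, were chosen with earlier results of these data known. Some called pathway genes are counted but not reported here by name. Named are the 10 genes, other pathway genes called in at least 1 comparison of groups, 6 partner genes (P4hb, Tm6sf2, Abca1, Pdzk1, Hnf4a, Lipc), the 3 nearest genes of each called member and marker lists. Ctsa, Apoa5, Apoc4 and the markers of 1 library were added after values were seen.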

Additional observations from a re-analysis of the deposited data

Results flagged for a closer look

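In 6 of 40 groups of libraries (10 genes in 4 groups), the highest or lowest library stood farther from its nearest neighbour than Dixon's limit allows, and chance alone gives about 1 in 20. Mttp was 350.04 CPM in CD + PE replicate 5, against 299.3 to 311.56 CPM in the other libraries of that group. Apoa4 was 3959.8 CPM in MD + PE replicate 4, against 549.92 to 1396.2 CPM in the others. Apoe was lowest in MD + Veh replicate 1, at 27271 CPM against 30052 to 30997 CPM. For Apoc1, CD + Veh replicate 1 was low at 1968 CPM against 2403 to 2459 CPM, and MD + Veh replicate 3 was high at 3300.5 CPM against 2689.8 to 2837.2 CPM. Pltp in MD + PE replicate 3 was 17.125 CPM, against 24.783 to 27.603 CPM in the others. The library of CD + Veh that decides the Pltp call with vehicle, replicate 4 at 197 CPM, had a gap of 0.828 of the group's range, just under the limit for 4 libraries.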

How the results depend on the processing

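Of 1440 refitted values of the 10 genes, 1379 kept their sign and their side of the limits, 5 became called, 1 lost its call (Pltp for MD with vehicle without CD + Veh replicate 4) and 55 changed sign, none of them a called change. The 5 were Apoa2 for PE on CD without CD + PE replicate 2, Scarb1 for MD with vehicle without CD + Veh replicate 3 (0.42, adjusted p = 0.0124), Apoa4 in a fit of only those groups, and Mttp for MD with vehicle under the covariate and with no minimum change. Sign changes outside left-out libraries were Pltp for PE on CD (0.001979 with the replicate block, 0.606 with the library covariate), Pltp for PE on MD (0.009704, covariate), and Mttp for PE on MD (0.01052 with RLE, 0.0107 with DESeq2, 0.01611 with only the groups compared, 0.006536 with the block) and for MD with PE (0.01049, 0.01043 and 0.005648 under RLE, DESeq2 and only the groups compared). The replicate block also turned Apoa4 for PE on MD (-0.03781) and the interactions of Apob (-0.01015) and Apoc1 (0.001703). Over 27 pairs of libraries with the same replicate number the median correlation was 0.0293, above 0.1 in 6 and at most 0.41. Pairs with different numbers were not compared, so whether the replicate numbers pair the mice was not settled. The block changed no call of the 10 genes but ended the pathway calls of Apoc2 for MD with PE and of Pon1 for PE on CD.

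With 1 library left out, the sign changed within these ranges: for PE on MD, Apoa2 -0.08192 to 0.01109, Apoa4 -0.4778 to 0.375, Lcat -0.01707 to 0.1114 and Mttp -0.04302 to 0.05909. For PE on CD they were -0.1663 to 0.4617 for Apoa4 and -0.3243 to 0.6028 for Pltp, and for MD with PE -0.07724 to 0.0565 for Lcat and -0.02987 to 0.03261 for Mttp. The interaction ran from -0.7106 to 0.3206 for Apoa4, -0.04224 to 0.04957 for Apob, -0.1003 to 0.05756 for Apoc1 and -0.178 to 0.01949 for Scarb1.

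Counts over all genes moved more. For PE on CD, 397 genes became 37 with the covariate and 215 to 426 with 1 library left out, and the 51 pathway genes went from 3 to 0 with the covariate and 1 to 3. The 10 genes held 0 to 1. For PE on MD, 147 became 299 (DESeq2), 73 (only the groups compared), 33 (covariate) and 56 to 243, and the pathway count of 4 became 2, 1 and 1 to 4 under only the groups compared, the covariate and left-out libraries. For MD with vehicle, leaving out libraries 43 to 45, a fit chosen after seeing the data, gave 737 genes in place of 1410 and 5 pathway genes in place of 10, with fewer samples, and Apoa1 lost its call there. For MD with PE, 627 became 964 without a minimum change and 505 to 987 with 1 library left out. The interaction count of 1 became 81 (DESeq2), 41 (block), 54 (covariate), 0 (thinned) and 0 to 3. The causes were not tested. The wide intervals of Pltp and Apoa4 limit what these group sizes can show.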
